A study of Mus musculus with 15 samples.

Results

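The genes described here are 10 classical markers and regulators of the epithelial-mesenchymal transition (EMT): the cadherins *Cdh1* and *Cdh2*, the intermediate filament gene *Vim*, the transcription factors *Snai1*, *Snai2*, *Zeb1*, *Zeb2* and *Twist1*, and the contractile genes *Acta2* and *Tagln*. The genes were picked by symbol, and 9 of the 10 had a row among the 16729 genes in the expression matrix. *Snai2* was not analysed here. RNA was sequenced from 15 cultures of mouse endometrial epithelial organoids, which are structures grown in Matrigel from uterine epithelium. All mice carried floxed alleles of both *Smad2* and *Smad3* (Smad2flox/flox; Smad3flox/flox). Organoids without Cre were given DMSO (control + vehicle, n = 3) or A83-01, an inhibitor of the ALK4, ALK5 and ALK7 receptors that activate SMAD2 and SMAD3 (control + A83-01, n = 4). Organoids that also carried 1 Ltfcre allele, which drives Cre from the lactoferrin promoter in uterine epithelium, were given DMSO (*Smad2/3* cKO, n = 4) or A83-01 (*Smad2/3* cKO + A83-01, n = 4). The submitters state 4 mice per genotype, but the 8 *Smad2/3* cKO libraries carry 7 different sample numbers, so how libraries map to mice is uncertain. Replicates 1 to 3 of the control groups share their sample numbers between vehicle and A83-01, as do *Smad2/3* cKO replicate 2 and *Smad2/3* cKO + A83-01 replicate 1.

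In an EMT, epithelial cells lose the junction protein E-cadherin, the product of *Cdh1*, and gain mesenchymal proteins such as N-cadherin (*Cdh2*) and vimentin (*Vim*). The transcription factors of the SNAIL, ZEB and TWIST families bind E-box sequences and repress *Cdh1* and other epithelial genes. TGFβ acting through SMAD2 and SMAD3 is a well known inducer of these factors, and *Acta2* (smooth muscle α-actin) and *Tagln* (transgelin) are contractile genes that TGFβ and serum response factor, which binds the CArG box, both activate.

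Epithelial markers were abundant in every library, and markers of some other cells were present. Normalized counts summed to 20241771 to 24423127 per library, from an estimated 18600000 to 43800000 reads, and replicates correlated at r = 0.948 to 0.975 on the log2 scale. The 10 epithelial markers (such as *Epcam* and *Krt8*) summed to 146617 to 356977 normalized counts per library. Control + vehicle libraries held 277947 to 356977 of these and *Smad2/3* cKO libraries 151412 to 264545, without overlap. Of 9 endometrial stroma markers, 6 had a row, and their sum ranged from 27.4 to 191 in control + vehicle. With A83-01 it ranged from 4.79 to 54.7 in control organoids and from 3.99 to 129 in *Smad2/3* cKO organoids, and *Smad2/3* cKO with DMSO had 2.96 to 24.7. *Lum* was listed at 0 in all libraries of control + A83-01 and *Smad2/3* cKO, *Dcn* in all 4 of *Smad2/3* cKO and *Col1a1* in all 4 of control + A83-01. These genes were low in control + vehicle too: *Lum* at 3.90, 1.78 and 0, *Dcn* at 18.4, 19.4 and 0, and *Col1a1* at 15.4, 34.7 and 2.65. Smooth muscle markers with a row (*Des* and *Cnn1*, 2 of 5) summed to at most 16.8. The leukocyte markers (4 of 5 with a row, mostly *Cd68*) summed to 1206 to 2513 in control + vehicle and, with A83-01, to 3164 to 8391. *Smad2/3* cKO had 1951 to 5332 of them, and 3841 to 7566 with A83-01. The mesothelium markers (2 of 3, mostly *Msln*) summed to 1612 to 31301 over all libraries. *Smad2/3* cKO replicate 2 stood apart: the macrophage gene *Adgre1* was at 351 there and at most 9.01 in the other 14 libraries. The targeted genes were read over their whole length, which need not fall when only some exons are removed: control + vehicle had *Smad2* at 1171 ± 149 (SD, n = 3), against 875 ± 43.8 (SD, n = 4) in *Smad2/3* cKO, and *Smad3* was at 1624 ± 107 and 1576 ± 334. These values do not show the deletion.

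Promoter sequence is shown for *Twist1* and *Acta2*, which fell in *Smad2/3* cKO, and for *Snai1*, a member near the detection limit in every group. RefSeq promoters (GRCm38.p6) were found for 5 of the 10 members. The stretches are the bases before the RefSeq start that lie outside annotated exons, written 5′ to 3′ on the gene's strand, with capitals for matches to CACCTG (the E-box that SNAIL and ZEB proteins bind) or CAGACA (which holds the SMAD box) on either strand.
*Twist1*, chr12:33957421-33957670, plus strand: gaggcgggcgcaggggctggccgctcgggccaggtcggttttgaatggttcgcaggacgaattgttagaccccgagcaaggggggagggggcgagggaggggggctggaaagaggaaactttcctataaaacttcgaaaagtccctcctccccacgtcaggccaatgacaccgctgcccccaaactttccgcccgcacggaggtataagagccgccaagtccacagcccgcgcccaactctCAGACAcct
*Acta2*, chr19:34255591-34255623, minus strand: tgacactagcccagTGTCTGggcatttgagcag
*Snai1*, chr2:167537945-167538194, plus strand: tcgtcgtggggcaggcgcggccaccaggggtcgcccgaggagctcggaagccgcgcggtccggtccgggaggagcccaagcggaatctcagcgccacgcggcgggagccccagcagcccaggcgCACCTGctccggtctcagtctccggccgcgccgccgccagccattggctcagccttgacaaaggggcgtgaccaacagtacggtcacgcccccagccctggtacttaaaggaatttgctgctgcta
Within 250 bases before the start, *Twist1* and *Acta2* each held 1 CAGACA match, at 9 to 4 bases and at 236 to 231 bases before the start, and no CACCTG match. *Snai1* held 1 CACCTG match and no CAGACA match. The windows of *Vim* and *Zeb2* held neither, and no member's window held GTCTAGAC or a CArG box in its strict form. Not all of these windows lie upstream of annotated exons. Counted from the far end, the *Acta2* window held 33 bases before the first exonic base. The *Vim* window and most *Zeb2* windows held 0 such bases. Sequence further upstream was not searched. The matches did not overlap each other. Of 32851 promoter windows of the same length, 17.1% held CAGACA, 17.2% CACCTG, 0.167% GTCTAGAC and 1.47% a strict CArG box, so a single CAGACA or CACCTG match is common.

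**Figure D1:**
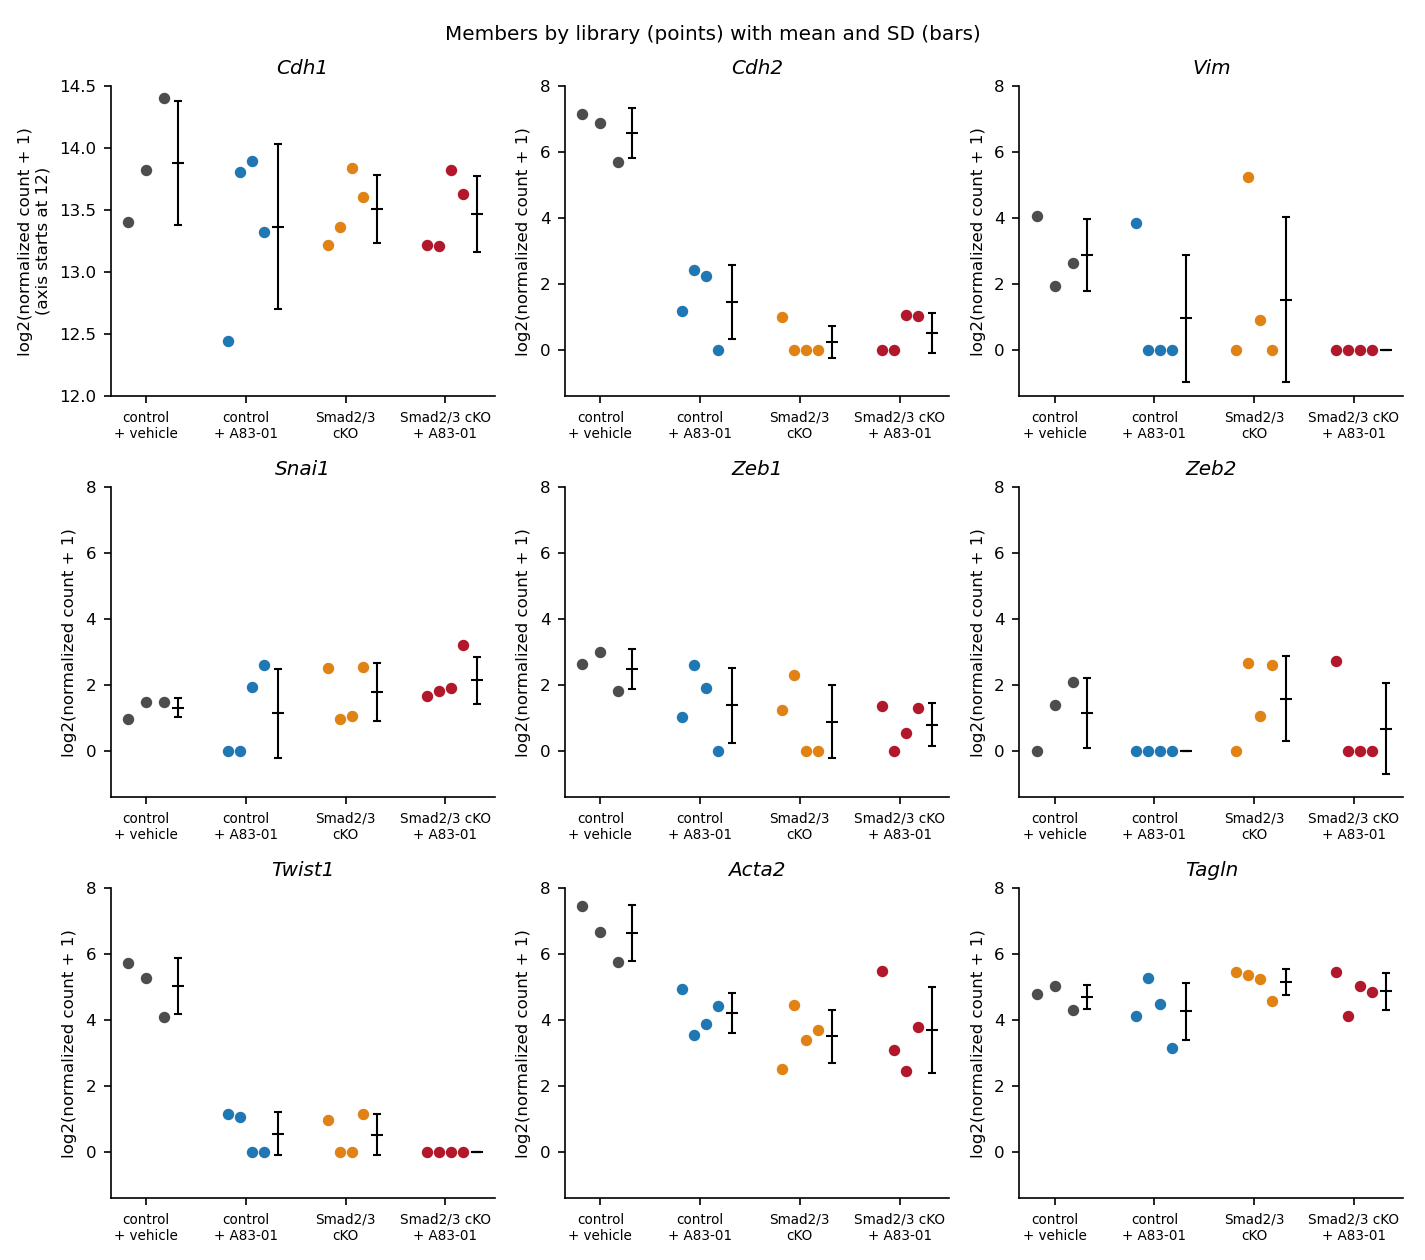
Normalized counts of the 9 members with a row, as log2(normalized count + 1), by group; each point is 1 library in replicate order, and the bars are the mean and SD of the log2 values (n = 3, 4, 4 and 4). The 3 control + vehicle libraries lie above the other 12 for *Cdh2*, *Twist1* and *Acta2*, while *Cdh1* and *Tagln* overlap between all groups; the *Cdh1* axis starts at 12.

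The epithelial member was abundant in every group. *Cdh1* (ENSMUSG00000000303, GRCm38 chr8:106603351-106670246) had normalized counts of 10860, 14498 and 21679 in control + vehicle. Control + A83-01 had 5583, 14383, 15226 and 10231. *Smad2/3* cKO had 9542, 10566, 14688 and 12472, and *Smad2/3* cKO + A83-01 had 9558, 9465, 14476 and 12667. The groups overlapped, and control + A83-01 replicate 1 was the lowest of the 15 libraries. No comparison of *Cdh1* passed the thresholds used here, an adjusted p below 0.01 and a change of at least 1.4-fold in either direction. The log2 fold change was −0.51 (95% confidence interval −1.35 to 0.33, adjusted p = 0.479) for control + A83-01 and −0.37 (−0.92 to 0.18, adjusted p = 0.324) for *Smad2/3* cKO against control + vehicle. The mean of *Cdh1* was highest in control + vehicle, at 15679 ± 5505 (SD, n = 3), and was 11356 ± 4425, 11817 ± 2267 and 11541 ± 2458 (SD, n = 4 each) in the other groups, which did not differ beyond their spread.

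*Cdh2* (ENSMUSG00000024304, chromosome 18) was present in control + vehicle and near or at 0 in the other groups. Its normalized counts were 141, 116 and 51.3 in the 3 control + vehicle libraries. They were 1.29, 4.37, 3.78 and 0 in control + A83-01. Replicate 1 of *Smad2/3* cKO had 0.983 and its other 3 libraries had 0, and with A83-01 that genotype had 0, 0, 1.09 and 1.06. Every control + vehicle library was above every library of the other groups. The difference from control + vehicle was −5.11 (SE 0.77) on the log2 scale with A83-01 (adjusted p = 0.00618, limma) and −6.33 (SE 0.71) in *Smad2/3* cKO (adjusted p = 0.000877, limma). These 2 comparisons share the control + vehicle libraries.

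Counted as reads, *Cdh2* rested on about 331 reads in control + vehicle, 9 in control + A83-01, 1 in *Smad2/3* cKO and 3 in *Smad2/3* cKO + A83-01. With the depth taken into account, control + vehicle was 42.4-fold higher than control + A83-01 (95% interval 22.0 to 93.4, exact binomial) and 388-fold higher than *Smad2/3* cKO (69.1 to 15352), intervals that cover counting error only. The fitted log2 values depend on the pseudocount, from −3.11 with 10 to −6.24 with 0.1 for A83-01. The inhibitor and vehicle libraries of the same replicate number deviated together, and with that number as a block the A83-01 difference was −4.62 and did not pass (adjusted p = 0.0111). *Cdh2* was lower with A83-01 in 3 of 3 such pairs. Of the 7 fits that left out 1 library, the A83-01 call held only without control + A83-01 replicate 2 (adjusted p = 0.00717). It was lost without control + vehicle replicate 1, 2 or 3 (adjusted p = 0.0505, 0.0479 and 0.0162) and without control + A83-01 replicate 1, 3 or 4 (adjusted p = 0.0126, 0.0126 and 0.0120). The *Smad2/3* cKO call was lost without control + vehicle replicate 1 or 2 (adjusted p = 0.0107 and 0.0101).

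*Twist1* (ENSMUSG00000035799, GRCm38 chr12:33957671-33959829), a basic helix-loop-helix factor, was also highest in control + vehicle and at or near 0 elsewhere. Its normalized counts were 51.6, 37.8 and 16.0 in control + vehicle. They were 1.25, 1.08, 0 and 0 in control + A83-01. *Smad2/3* cKO had 0.956, 0, 0 and 1.21, and all 4 libraries of *Smad2/3* cKO + A83-01 were at 0. Control + vehicle did not overlap with any other group, and the other 3 groups did not differ beyond their spread. *Twist1* fell by 4.50 (SE 0.81) on the log2 scale in *Smad2/3* cKO (adjusted p = 0.00617, limma). With A83-01 the difference was −4.47 (SE 0.81), and its adjusted p of 0.0137 missed the threshold. On about 113 reads in control + vehicle against 2 in each, the level was 65.1-fold (95% counting interval 17.6 to 544) that of control + A83-01 and 66.2-fold (17.9 to 553) that of *Smad2/3* cKO. It was at least 52.8-fold higher than in *Smad2/3* cKO + A83-01, taking a floor of 3 reads over that group. The *Smad2/3* cKO call was lost without control + vehicle replicate 2 or 3 (adjusted p = 0.0391 and 0.0129) and without *Smad2/3* cKO replicate 1, 2 or 4 (adjusted p = 0.0125, 0.0119 and 0.0137), and without control + vehicle replicate 1 the gene fell under the filter on low values.

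The other EMT transcription factors among the members were barely detected. *Snai1*, a zinc finger repressor of *Cdh1*, had 0.969, 1.80 and 1.78 in control + vehicle and at most 8.27 in any library, the value of *Smad2/3* cKO + A83-01 replicate 4. *Zeb1* had 5.26, 6.99 and 2.56 in control + vehicle. Its highest value was 5.14 in control + A83-01, 3.89 in *Smad2/3* cKO and 1.58 in *Smad2/3* cKO + A83-01, each with at least 1 library at 0, and only the last of these groups did not overlap with control + vehicle. *Zeb2*, its paralog, was at 0 in all 4 control + A83-01 libraries and at most 5.67 elsewhere. These 3 genes and *Vim* had means under 10 and were not tested. Without the filter, which raised the number of genes tested to 16606 and 16700 in the comparisons with control + vehicle, none of the 4 passed. The lowest adjusted p among them was 0.186, for *Zeb1* in *Smad2/3* cKO at a log2 difference of −1.61. At these levels a fall could not be measured.

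*Vim*, the filament gene most often used as a mesenchymal marker, was low and uneven. It had 15.8, 2.85 and 5.20 in control + vehicle, 13.4 in control + A83-01 replicate 1 and 0 in the other 3 libraries of that group. *Smad2/3* cKO had 0, 36.5, 0.862 and 0, and *Vim* was at 0 in all 4 libraries of *Smad2/3* cKO + A83-01. The value of 36.5 was that of *Smad2/3* cKO replicate 2, the library with *Adgre1* at 351 and the matrix protease gene *Mmp9* at 50.4 (at most 6.62 in the other 14). The part of other cells in it was not tested.

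*Acta2* (ENSMUSG00000035783, GRCm38 chr19:34241090-34255590) was highest in control + vehicle and was detected in every library. Its normalized counts were 176, 101 and 53.6 in control + vehicle. They were 29.5, 10.8, 13.8 and 20.5 in control + A83-01. *Smad2/3* cKO had 4.74, 21.0, 9.44 and 12.01, and *Smad2/3* cKO + A83-01 had 43.5, 7.56, 4.48 and 12.8. The control + vehicle libraries did not overlap with any other group, and the other groups overlapped with each other. *Acta2* fell in *Smad2/3* cKO by 3.12 (SE 0.61) on the log2 scale (adjusted p = 0.00841, limma), and control + vehicle held 9.16-fold the level by read counts (95% counting interval 6.70 to 12.8). With A83-01 the difference was −2.43 (SE 0.55) with an adjusted p of 0.0308, which did not pass, or −2.51 with an adjusted p of 0.0193 with the replicate block, and *Acta2* was lower in 3 of 3 pairs. The *Smad2/3* cKO call was lost without control + vehicle replicate 1, 2 or 3 (adjusted p = 0.0465, 0.0392 and 0.0107) and without *Smad2/3* cKO replicate 1, 3 or 4 (adjusted p = 0.0167, 0.0157 and 0.0208).

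*Tagln* (ENSMUSG00000032085, GRCm38 chr9:45929619-45936058), the other contractile member, did not pass in any comparison. It had 26.8, 31.4 and 18.8 in control + vehicle. It had 16.4, 37.3, 21.6 and 7.97 in control + A83-01. It had 42.6, 39.9, 36.8 and 22.7 in *Smad2/3* cKO, and 43.0, 16.5, 31.9 and 27.8 in *Smad2/3* cKO + A83-01. All groups overlapped. The log2 difference from control + vehicle was −0.45 (95% confidence interval −1.80 to 0.90) with A83-01 and 0.44 (−0.54 to 1.43) in *Smad2/3* cKO.

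**Figure D2:**
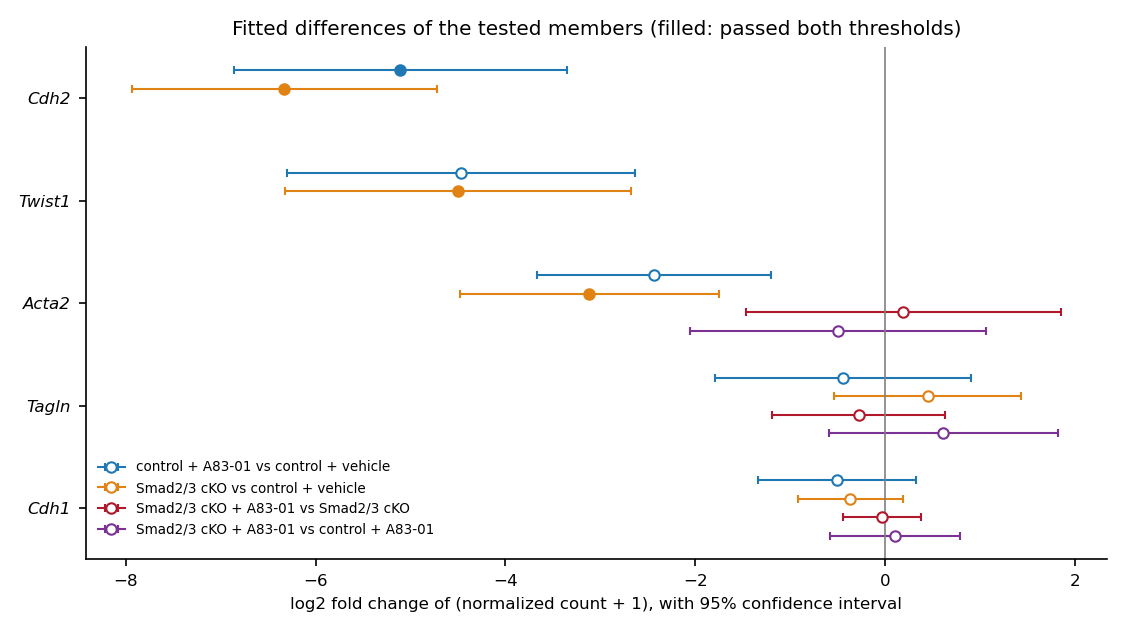
Fitted log2 fold changes of (normalized count + 1) with 95% confidence intervals for the tested members in the 4 comparisons of 2 groups; filled points passed both thresholds. *Cdh2* passed in both comparisons with control + vehicle, at −5.11 and −6.33 in these fits without a replicate block (with it, not with A83-01), *Twist1* and *Acta2* only in *Smad2/3* cKO, while the intervals of *Cdh1* and *Tagln* include 0; *Cdh2* and *Twist1* were under the filter in the comparisons that leave out control + vehicle.

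The question of whether the inhibitor and the deletion lower the same EMT markers was addressed by these 2 comparisons with control + vehicle. Both use the same control + vehicle libraries, so high values there make a gene lower in both. With A83-01, 1 of the 5 tested members passed as lower without the replicate block and 0 with it, beside 1.08% of all 13009 genes tested, and none passed as higher (1.19% of all genes). The deletion comparison had 3 of 5 lower, beside 3.3% of 13149 genes, and none as higher (4.08%). *Cdh2*, *Twist1* and *Acta2* did not overlap between groups in either comparison, as did 11.5% of all genes in the lower direction with A83-01 and 16.0% in *Smad2/3* cKO. *Cdh2* and *Twist1* passed the filter on low values through control + vehicle alone, so they could only be lower. The counts of members tested and of members passing are therefore not themselves a result. Leaving out *Smad2/3* cKO replicate 2, the library that stood apart, left *Cdh2* and *Acta2* past the thresholds and *Twist1* at an adjusted p of 0.0119. That *Twist1* and *Acta2* passed in *Smad2/3* cKO and not with A83-01 does not show that the 2 effects differ.

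Adding A83-01 to *Smad2/3* cKO organoids did not detectably change the members. Between *Smad2/3* cKO + A83-01 and *Smad2/3* cKO, 0 of the 3 tested members passed in limma, none at an unadjusted p under 0.05, beside 0.0% of all 12998 genes (554 of these at an unadjusted p under 0.05). The log2 difference was 0.19 (95% confidence interval −1.47 to 1.85) for *Acta2*, −0.28 (−1.19 to 0.62) for *Tagln* and −0.04 (−0.45 to 0.37) for *Cdh1*. Between the genotypes under A83-01, 0 of 3 passed again, none at an unadjusted p under 0.05, beside 0.0232% of 12915 genes (1229 of these at an unadjusted p under 0.05). There *Acta2* differed by −0.50 (−2.06 to 1.06), *Tagln* by 0.61 (−0.60 to 1.82) and *Cdh1* by 0.10 (−0.58 to 0.78). The intervals of *Acta2* leave room for a change of more than 1.4-fold either way. *Cdh2* and *Twist1* were within a few reads of 0 in the groups of both comparisons, so a further fall could not be measured.

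The effect of A83-01 was compared between genotypes as an interaction in all 15 libraries. For *Cdh2* it was 5.39 (SE 1.05) on the log2 scale, with an adjusted p of 0.0167 that did not pass, or 0.00518 without the filter on low values. It was 2.62 (SE 0.95, adjusted p = 0.203) for *Acta2*, 0.47 (adjusted p = 0.703) for *Cdh1* and 0.17 (adjusted p = 0.95) for *Tagln*. None of the 4 tested members passed in limma, and 2 had an unadjusted p under 0.05. Of all 13066 genes 0.551% passed, and 1865 had an unadjusted p under 0.05. *Cdh2* summed to about 1 read over *Smad2/3* cKO and 3 over *Smad2/3* cKO + A83-01, so a fall like that in control organoids was not possible there.

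**Figure D3:**
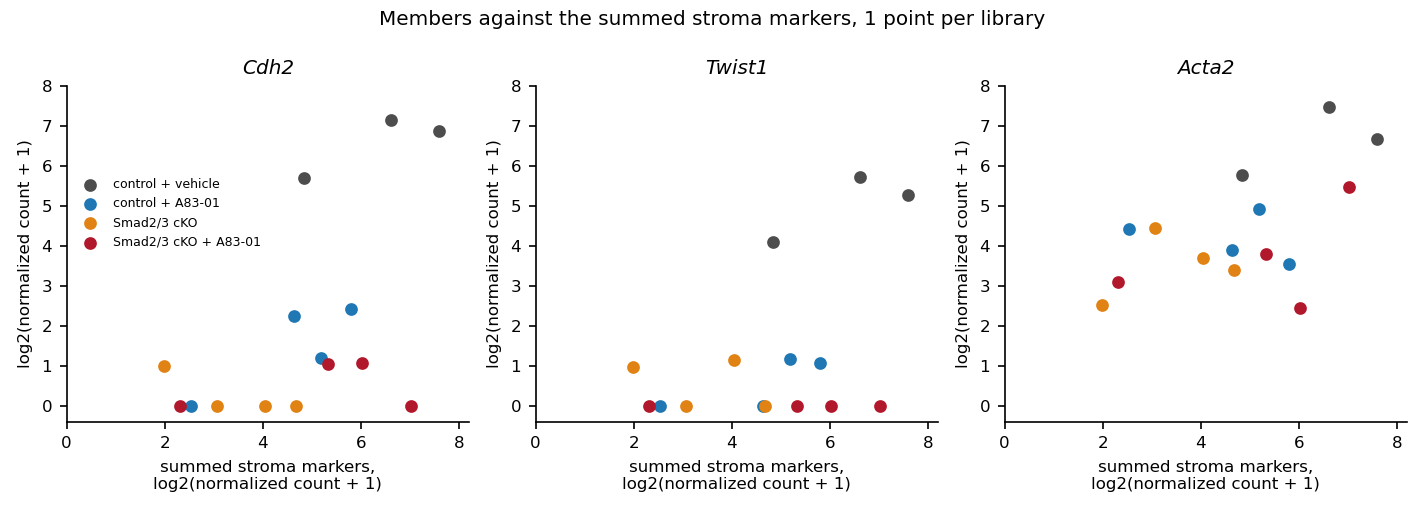
Each point is 1 library, with the summed normalized count of the 6 stroma markers on the x axis and *Cdh2*, *Twist1* or *Acta2* on the y axis, all as log2(value + 1) and coloured by group. *Smad2/3* cKO + A83-01 replicate 1 lies far right, at a stroma sum of 129, with *Cdh2* and *Twist1* at 0 and *Acta2* at 43.5.

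Stroma markers moved in part with these members. In bulk RNA, fewer cells of a type cannot be told apart from less RNA per cell. The stroma sum was 96.6, 191 and 27.4 in the 3 control + vehicle libraries, where *Cdh2* was at 141, 116 and 51.3. Control + A83-01 had stroma sums of 35.5, 54.7, 24.0 and 4.79, where *Cdh2* was at 1.29, 4.37, 3.78 and 0. The sum of 54.7 was *Pdgfra* alone, with the other 5 markers at 0. *Smad2/3* cKO + A83-01 replicate 1 had a stroma sum of 129, with *Dcn* at 44.3 and *Col3a1* at 41.7, and had *Cdh2* and *Twist1* at 0. Its *Acta2* of 43.5 was the highest outside control + vehicle. *Smad2/3* cKO had stroma sums of 2.96, 7.43, 24.7 and 15.5, all under those of control + vehicle. The part of stroma in *Cdh2*, *Twist1* and *Acta2* was not tested.

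Among related genes, 3 of 12 tested matrix genes, 2 of 18 contractile genes and 3 of 11 SMAD2/3 response genes fell with A83-01. Over 7 lists of EMT regulators, epithelial genes, matrix, contractile, filament and SMAD2/3 response genes, 8 of 81 tested genes passed as lower (9.88%), beside the 1.08% of all genes, and 0 passed as higher. Of the 8, *Fn1* and *Tnc* had means under 10 with A83-01, so that they entered the test through control + vehicle and could only be lower. Some leukocyte markers were higher in the same libraries, with *Ptprc* at 12.5 to 38.6 in control + vehicle and 68.5 to 236 with A83-01 and *Cd68* at 1180 to 2474 and 3024 to 8115. The macrophage marker *Adgre1*, under the filter, did not follow, at 0 to 5.25 in control + vehicle and 0 to 9.01 with A83-01. None of the 3 tested leukocyte markers passed in limma, all 3 had an unadjusted p under 0.05, and their part in these results was not tested. Of the 26 mesenchymal and matrix genes 12 were tested, and 3 fell: *Fn1* (fibronectin) by 8.49 on the log2 scale, *Tnc* (tenascin C) by 6.37 and *Itga5* (the α chain of the fibronectin receptor) by 2.43. *Fn1* had 1884, 3828 and 5624 in control + vehicle and 4.64 to 18.6 in control + A83-01. Of 18 tested contractile genes, *Tpm1* (tropomyosin) fell by 1.20 and *Actn1* (α-actinin) by 1.13. Of 11 tested SMAD2/3 response genes, *Pmepa1* and *Smad7*, both feedback inhibitors of the pathway, fell by 4.44 and 3.79 and *Ccn2*, a matricellular factor, differed by −2.72. Their adjusted p ran from 0.000106 to 0.00437 (limma). None of the 7 other EMT transcription factors, 12 epithelial regulators, 15 junction genes and 6 filament genes tested passed, while 4, 3, 6 and 1 of them had an unadjusted p under 0.05 in limma. Over all 13009 genes tested with A83-01, 2882 were under that value. The median log2 difference was −2.67 for the matrix list, −0.77 for the contractile list and −1.14 for the response list, against −0.015 over all genes, medians that include genes tested only through control + vehicle. The count of 8 was 2 to 6 without control + vehicle replicate 1, 2 or 3 or control + A83-01 replicate 3 or 4 (3, 2, 5, 6 and 5).

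With the deletion, 19 of 82 tested list genes passed as lower (23.2%, beside 3.3% of all genes), and 0 as higher. Of the 19, *Fn1*, *Tnc* and *Sparc* had means under 10 in *Smad2/3* cKO and could only be lower, and the lists were chosen with earlier results known, so the share is a description. The matrix list had 6 of 13 lower, led by *Fn1* (−9.06), *Tnc* (−5.34), *Sparc* (an extracellular calcium-binding glycoprotein, −4.96) and *Itga5* (−2.49). *Sparc* had 55.7, 71.5 and 19.5 in control + vehicle and at most 1.24 in *Smad2/3* cKO. Of the 7 other EMT transcription factors tested, *Sox4* (−4.62), *Tcf4* (−1.19) and *Tcf3* (−0.92) fell, the last 2 being E proteins that pair with TWIST1. *Sox4* had 3142, 2800 and 3707 in control + vehicle and 60.5 to 249 in *Smad2/3* cKO. With A83-01 *Sox4* was at 35.0 to 663, a log2 difference of −4.24 whose adjusted p of 0.0294 did not pass. The contractile list had 3 of 18 lower, *Tpm2* (−4.30), *Tpm1* (−1.55) and *Actn1* (−1.11), and the response list 3 of 12, *Pmepa1* (−4.29), *Ccn2* (−2.94) and *Tgif1* (−1.18). *Tgfbi*, a matrix protein gene on both the matrix and response lists, lay the other way, at 0.944 to 8.70 in control + vehicle and 20.6 to 66.5 in *Smad2/3* cKO. It did not pass (log2 difference 3.41, adjusted p = 0.0136, limma). Its mean in control + vehicle was under 10, so it entered the test through *Smad2/3* cKO and could only be higher.

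A few epithelial genes were also lower. Of 15 junction genes, the claudin gene *Cldn4* (−2.55), the plakophilin gene *Pkp3* (−0.69) and the α-catenin gene *Ctnna1* (−0.68) fell in *Smad2/3* cKO, and of 12 epithelial regulators *Elf3* (−1.22), an ETS factor of epithelia. *Cldn4* had 5810, 2573 and 5470 in control + vehicle and 473 to 1396 in *Smad2/3* cKO. None of 6 filament genes passed in limma, 4 of them at an unadjusted p under 0.05, beside 4434 of all 13149 genes tested. Medians were −2.49 for the matrix list, −1.19 for the other EMT transcription factors, −0.88 for the contractile list, −1.18 for the response list, −0.52 for the junction list, −0.29 for the epithelial regulators and −0.72 for the filament list, against 0.00 over all genes. These medians include genes tested only through control + vehicle, as 8 of the 82 tested list genes had means under 10 in *Smad2/3* cKO. Among markers of other cells, *Ptprc* (leukocytes, log2 difference 3.33) and *Trp63* (basal cells, 4.64) were higher, *Ptprc* at 12.5 to 38.6 in control + vehicle and 123 to 309 in *Smad2/3* cKO, *Trp63* at 0 to 4.91 and 25.6 to 109. With a mean under 10 in control + vehicle, *Trp63* entered the test through *Smad2/3* cKO and could only be higher. The basal marker *Krt14*, under the filter, was at 4.84 to 21.1 in control + vehicle and 0 to 7.32 in *Smad2/3* cKO. Their part in these results was not tested. The count of 19 was 13 without *Smad2/3* cKO replicate 2, with 0 junction genes and 1 contractile gene left. It was 11 without *Smad2/3* cKO replicate 1 or 4, and 5 without control + vehicle replicate 1 or 2.

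**Figure D4:**
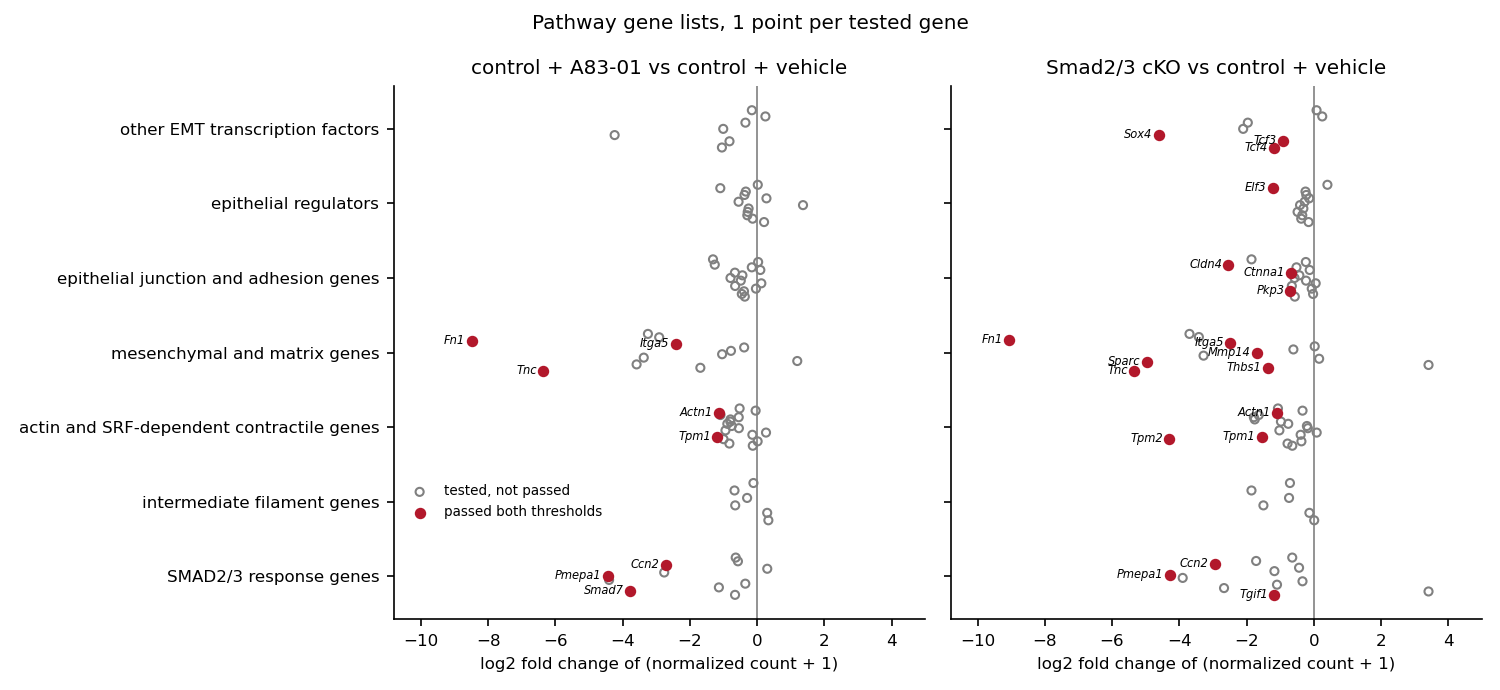
Log2 fold changes of (normalized count + 1) for the tested genes of 7 lists in the 2 comparisons with control + vehicle, 1 point per gene; filled and named points passed both thresholds. All named points lie left of 0, from *Fn1* at −8.49 and −9.06 to *Ctnna1* at −0.68.

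None of the 77 list genes tested passed when *Smad2/3* cKO + A83-01 was compared with *Smad2/3* cKO or with control + A83-01, while 8 and 17 had an unadjusted p under 0.05 in limma. Over all genes, 554 of 12998 and 1229 of 12915 were under that value. In the interaction 1 of 81 passed, *Fn1* at 9.61 (SE 1.10, adjusted p = 0.000298), whose normalized counts were 0.633 to 21.2 in all *Smad2/3* cKO libraries with or without A83-01. A fall like that in control organoids was not possible at these levels.

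Likeness of pattern was described by Pearson correlation of log2 values over the 15 libraries among 13065 genes, where the libraries share the 4 groups and the order of the levels is set mostly by control + vehicle. *Cdh2* was most like *Smurf1* (an E3 ubiquitin ligase, r = 0.971), *Slc6a2* (a noradrenaline transporter, 0.946) and *Has2* (a hyaluronan synthase, 0.937), and least like *Tnfrsf19* (a TNF receptor family member, −0.975). *Acta2* was most like *Tnfrsf10b* (a death receptor, 0.906), *Atp6v1b2* (a proton pump subunit, 0.881) and *Serpina9* (a serine protease inhibitor, 0.878), and least like *Prtn3* (a serine protease, −0.886). *Twist1* had a mean under 10 over the 15 libraries and was left out.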

How the data were processed

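Organoid RNA was made into cDNA with a low-input kit and sequenced. Per the labels' processing notes, the authors used Salmon 1.4.0 and DESeq2 1.32.0 with GRCm39. The deposited signal values are normalized counts per gene: estimated counts scaled by library. Of values under 1.5, 30.7% to 70.3% per library lay within 5% of the value of 1 read, so whole reads could not be recovered and count models were not used. For genes above 0 in all libraries the median ratio to the geometric mean was 1.01137 in every library. Read numbers given here are values divided by the value of 1 read (0.53 to 1.29 by library). The positions and promoters are from GRCm38, not the authors' build, and genes were matched by Ensembl identifier.

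The 4 comparisons were each fitted on the libraries of their 2 groups, and the interaction in all 15 libraries, with limma 3.58.1 (lmFit, eBayes with trend, R 4.3.3) on log2(normalized count + 1), keeping genes whose mean reached 10, with Benjamini-Hochberg adjustment over all of them. Fold changes are on that scale and understate changes of low genes. Genes passed at an adjusted p below 0.01 and 1.4-fold. Counting intervals are exact conditional binomial at 95%, with a floor of 3 reads for a group at 0, and cover counting error only. The model was tested on simulated data. All members were named, with the up to 4 passing genes of each list with the largest fold changes in the comparisons with control + vehicle, and the 3 most and 1 least correlated genes. The members and lists were chosen with earlier results of these data known. *Mmp9*, *Tgfbi*, *Krt14*, *Ptprc*, *Trp63* and the other marker genes were named after their values were seen.

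The 3 replicate numbers shared by control + vehicle and control + A83-01 carry the same number in the descriptions, and deviations from group means correlated at 0.354 to 0.423 in these pairs (other pairs −0.359 to 0.348), so they were taken as paired. A shared number alone does not show this. *Smad2/3* cKO replicate 1 carries number 367 as well, and its deviations correlated with those of control + vehicle replicate 1 at 0.0774. The main fits have no block, after the study's methods, and the blocked value is given where it changes a call. Alternatives were the pseudocount, the filter, other scalings, eBayes without trend, sample weights, covariates, thresholds and leaving out each library. The sample numbers form 2 series, 367 to 373 and 393 to 396. All *Smad2/3* cKO + A83-01 libraries are in the first, and every other group holds libraries of both.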

Additional observations from a re-analysis of the deposited data

Results flagged for a closer look

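In groups of 4 libraries the gap of the highest or lowest library to the next exceeded Dixon's 95% critical share of the range in 5 of 27 checks of a member in a group, each time for the highest, where chance gives about 1 in 20 for continuous values. That rate does not hold near 0: in 3 of the 5 the other 3 libraries were at 0, so the gap is the whole range. *Vim* was at 36.5 in *Smad2/3* cKO replicate 2 and at 13.4 in control + A83-01 replicate 1, against at most 0.862 in the other libraries of these groups. In *Smad2/3* cKO + A83-01, *Snai1* was at 8.27 in replicate 4, with at most 2.73 in the others, and *Zeb2* at 5.67 in replicate 1, with 0 in the others. *Cdh2* at 0.983 in *Smad2/3* cKO replicate 1 is about 1 read. The effect of A83-01 on *Fn1* differed between genotypes by 9.61 on the log2 scale, by the interaction test in limma. *Fn1* fell in control organoids and was already low in *Smad2/3* cKO, so a like fall was not possible there.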

How the results depend on the processing

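Every fitted difference of *Cdh2*, *Twist1* and *Acta2* from control + vehicle remained negative under every alternative that gave a value. The number of members past the thresholds was less stable. With A83-01 it was 1, and became 0 with a pseudocount of 0.1 or a minimum mean of 50 (where *Cdh2* and *Twist1* were not tested), 2 without the filter, without the eBayes trend, with sample weights, with the series of label numbers as a covariate or with all 4 groups in the fit, and 3 at an adjusted p below 0.05. In *Smad2/3* cKO it was 3, and became 1 with a pseudocount of 0.1 or the number series, and 0 at a minimum mean of 50. It became 2 with quantile normalization or without the eBayes trend, where *Acta2* did not pass (adjusted p = 0.0102 and 0.0147 in limma). In the interaction it was 0, and became 1 (*Cdh2*) with a pseudocount of 10, without the filter, without the trend, with sample weights or at an adjusted p below 0.05. Leaving out 1 library gave 0 to 1 with A83-01 and 0 to 2 in *Smad2/3* cKO, with 0 there without control + vehicle replicate 1 or 2. The replicate block gave 0 with A83-01. It gave 0 in *Smad2/3* cKO as well, but there libraries share only a replicate number (correlations of deviations 0.0153 to 0.0774), and list genes past the thresholds went from 19 to 5. Over all genes, those called higher and lower with A83-01 went from 155 and 140 to 211 and 188 with the replicate block, 103 and 97 without the trend, 280 and 302 with sample weights, 231 and 212 with the number series, 397 and 258 with all 4 groups and 474 and 481 at an adjusted p below 0.05. Without control + vehicle replicate 1 or 2 they were 38 and 15 or 37 and 12, and without replicate 3 or control + A83-01 replicate 3 or 4 they were 87 and 41, 77 and 63, and 63 and 53. In *Smad2/3* cKO they went from 536 and 434 to 257 and 195 without the trend, 206 and 74 or 211 and 77 without control + vehicle replicate 1 or 2, 313 and 211 or 251 and 192 without *Smad2/3* cKO replicate 1 or 4, 346 and 306 without replicate 2, 423 and 240 without control + vehicle replicate 3, 145 and 66 with the block and 1204 and 1209 at an adjusted p below 0.05. The count of members stayed at 0 for *Smad2/3* cKO + A83-01 against either *Smad2/3* cKO or control + A83-01 under every alternative run. Over all genes, those called higher and lower against control + A83-01 went from 3 and 0 to 56 and 16 with the number series. Beyond the minimum means, the causes were not tested. *Vim*, *Snai1*, *Zeb1* and *Zeb2*, whose group means were under 10, were under the filter, and the part of depth in this was not tested.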
